A study of Mus musculus with 3 samples.

Results

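The genes described here encode the enzymes that write and remove methyl and acetyl groups on histones and on DNA, with a few obligate partners, in B16 mouse melanoma cells. They are found by their symbols, and no measured value enters the rule, although the set was proposed with earlier results of these data known: DNA methyltransferases, TET dioxygenases, lysine and arginine methyltransferases, lysine demethylases, acetyltransferases, histone deacetylases and sirtuins. The symbol patterns found 93 of the 17285 genes in the deposited table. Kdm5d had no row under its symbol and was not analysed here. Uhrf1bp1 and Uhrf1bp1l matched by the start of their symbol only and do not encode chromatin enzymes.

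RNA was sequenced from 3 samples, Mock replicates 1, 2 and 3, of a B16 line in which an empty vector is stably integrated. B16 is a pigmented line that grows in C57BL/6 mice and is widely used as a melanoma model. The samples are the only group, so no treatment, genotype or time could be compared, and the vector is shared by every sample. Levels were set against a fixed threshold, against related genes in the same library, and between the 3 libraries.

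Histone tails carry acetyl groups on lysines and methyl groups on lysines and arginines, and cytosines of DNA carry methyl groups mainly where a guanine follows. Writers place these groups, erasers remove them, and both kinds act largely inside multisubunit complexes. DNMT1 with its guide UHRF1 copies DNA methylation after replication, DNMT3A and DNMT3B set it anew, and TET enzymes oxidise it. In melanoma, EZH2, the methyltransferase of Polycomb repressive complex 2 (PRC2), and several deacetylases have been studied as drug targets.

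The libraries held 9328087, 9456501 and 9438894 counts in replicates 1, 2 and 3. A gene at 1 CPM (counts scaled to library size) would collect 28.22 reads over the 3 libraries, and a gene with no read could still lie at up to 0.106 CPM, the level of 3 counts over the group. That limit covers counting error only. The labels do not tell if the replicates were grown apart, and the p-values therefore speak of the spread among these libraries, which may be technical. Markers of the melanocyte lineage were above 1 CPM in 8 of 8 genes, with Tyrp1, a pigment enzyme, highest at 12340 ± 399 CPM (SD, n = 3, as for every CPM and RPKM value here). Tyr was lowest at 6.52 ± 0.839 CPM. None of 21 leukocyte, fibroblast, endothelial and epithelial marker genes in the table was called above 1 CPM by edgeR's quasi-likelihood test. Of these, 14 had no counts: Cd3g, Cd4, Csf1r, Adgre1, Tyrobp, Dcn, Col3a1, Thy1, Fap, Kdr, Cdh5, Emcn, Krt14 and Esrp1. The epithelial marker Cdh1, at 1.17 ± 0.284 CPM, was not resolved from 1 CPM (edgeR, adjusted p = 0.435, n = 3).

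Nearly the whole set of enzymes was transcribed. Of 93 genes, 90 had a count, and 88 of these (97.78%) were above 1 CPM by edgeR's quasi-likelihood test at an adjusted p under 0.05. Over all 14408 genes with a count, 74.3% were called above and 20.2% below. That 74.3% is the share to hold beside each later count of genes above 1 CPM. Where a list includes genes without counts, the share is 10711 of the 17285 genes in the table. The single gene called below was Kdm4d, Nsd1 could not be placed on either side, and Dnmt3l, Prmt8 and Hdac11 had no counts. The median level was 52.1 CPM, beside 23.58 CPM over all genes with a count and 12.61 CPM over the whole table. On the length-corrected scale of CPM per kilobase of merged exons (RPKM) the median was 7.67, beside 4.92 over all genes with a count and a length. Of the 93 genes, 27 reached 100 CPM, 54 lay from 10 to 100 CPM and 12 lay under 10 CPM. Together they took between 0.71% and 0.719% of each library's counts.

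**Figure D1:**
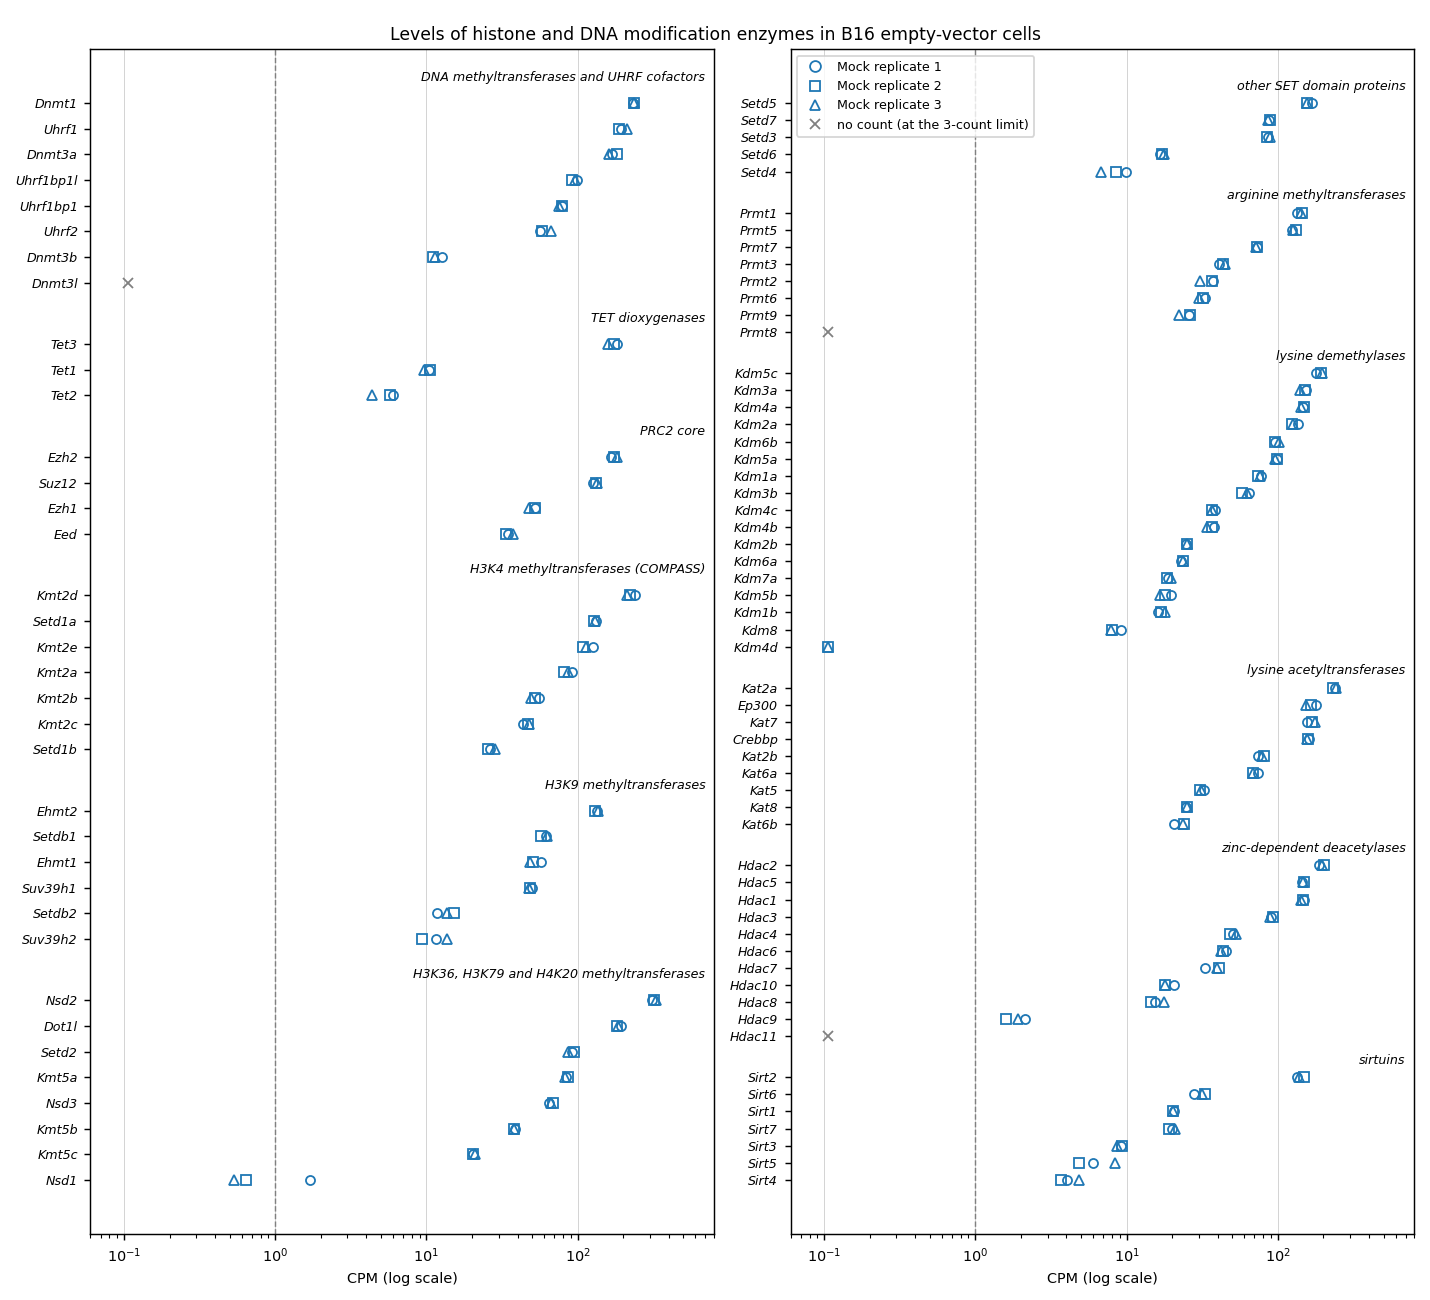
Level of each of the 93 genes in CPM (log axis), grouped by role, with 1 symbol per Mock library; the dashed line is 1 CPM and crosses mark genes with no counts, drawn at the limit of 3 counts over the group. The 3 symbols of most genes lie on top of each other, Nsd1 straddles the line, and Kdm4d shows only replicates 2 and 3 because replicate 1 had no read.

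In reads, the most abundant transcript was that of Nsd2, which encodes a methyltransferase that places 2 methyl groups on lysine 36 of histone H3 (chromosome 5, bases 33820725 to 33897975 of GRCm38). Its level was 311.4, 320.5 and 327.3 CPM in replicates 1, 2 and 3, so that the libraries lay within a few percent of each other. Per kilobase the order changed, since Nsd2 has long annotated exons. Kat2a, the GCN5 acetyltransferase of the SAGA and ATAC coactivators, led at 68.31 ± 1.6 RPKM. Uhrf1 followed at 46.51 ± 2.86 RPKM, then Hdac2 at 43.65 ± 1.8, Hdac1 at 42.44 ± 0.976 and Prmt1 at 40.87 ± 1.7 RPKM. Uhrf1, Hdac2, Hdac1 and Prmt1 each overlapped the next in this order within their SDs, so these neighbours are not told apart, and Kat2a lay above them. Both the order and that lead hold for merged exons only. With the longest transcript as length, Kat2a was at 72.72 ± 1.71 RPKM and overlapped Hdac1 at 71.74 ± 1.65 RPKM, followed by Sirt2 at 65.95 ± 3.59 and Prmt1 at 65.2 ± 2.71 RPKM, with Uhrf1 seventh at 55.24 ± 3.39 RPKM.

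Promoter sequence was set beside these levels because methylated cytosine lies mainly in CpG pairs, and CpG-dense promoters are typical of genes active in most tissues. RefSeq windows of GRCm38, from 250 bases before to 50 bases after a transcript start, were found for 77 of the 93 genes, and the window with the most CpG was taken for each gene. The median was 27 CpG, beside 19 for the 13290 genes of the table with a window, 23 for table genes called above 1 CPM, 8 for those called below and 6 for those with no counts. Among the enzymes it was 28 for the 73 called above and 19.5 for the 4 that were not. At least 10 CpG were present in 73 of the 77 windows (94.81%). The share was 73.11% over the table's genes with a window and 89.73% over those called above 1 CPM. The letters TATAAA were searched on both strands, with TTTATA as the reverse complement. They occurred in 2 of the 77 windows, those of Prmt2 and Hdac8. The share was 8.24% over the table's genes with a window and 5.45% over those called above 1 CPM. These are descriptions of windows of equal length; no methylation was measured.

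The stretches upstream of 6 RefSeq starts are shown to set CpG-rich against CpG-poor windows and detected against undetected genes. CpG pairs are in capitals, bases run 5′ to 3′ on the gene's strand, coordinates are GRCm38 from the RefSeq table, and bases inside a GENCODE exon were left out. Kat2a (minus strand, chr11:100712468-100712667) had the highest RPKM by merged exons. Dnmt3a (plus strand, chr12:3806910-3807029) is shown at the CpG-richest of its 3 windows, which held 18 to 47 CpG. Hdac4 (minus strand, chr1:92180342-92180541) and Hdac9 (minus strand, chr12:34528890-34529089) are paralogs with 32 and at most 3 CpG. Dnmt3l (plus strand, chr10:78049642-78049841) and Hdac11 (plus strand, chr6:91156565-91156664) had no counts, with at most 6 CpG in the 3 windows of Dnmt3l and 22 in that of Hdac11. The stretches of Dnmt3a, Hdac4, Hdac9 and Dnmt3l lie inside the GENCODE bounds of their genes, so they precede internal starts. Hdac9, for one, spans bases 34047580 to 34917095. Only those of Kat2a and Hdac11 lie outside their genes.
Kat2a: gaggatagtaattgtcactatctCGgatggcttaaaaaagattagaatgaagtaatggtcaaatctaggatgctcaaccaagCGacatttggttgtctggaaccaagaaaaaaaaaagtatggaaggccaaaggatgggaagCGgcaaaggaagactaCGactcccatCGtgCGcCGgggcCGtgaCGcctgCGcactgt
Dnmt3a: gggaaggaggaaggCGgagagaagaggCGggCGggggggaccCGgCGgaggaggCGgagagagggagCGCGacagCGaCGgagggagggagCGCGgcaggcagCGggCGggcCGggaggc
Hdac4: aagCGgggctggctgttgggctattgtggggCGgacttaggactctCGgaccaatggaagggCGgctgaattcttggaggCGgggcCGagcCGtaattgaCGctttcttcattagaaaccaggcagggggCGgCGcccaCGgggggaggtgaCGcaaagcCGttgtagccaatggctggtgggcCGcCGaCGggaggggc
Hdac9: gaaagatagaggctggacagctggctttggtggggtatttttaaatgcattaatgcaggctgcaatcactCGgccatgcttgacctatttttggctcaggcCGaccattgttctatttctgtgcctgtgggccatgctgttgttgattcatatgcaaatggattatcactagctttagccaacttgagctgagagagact
Dnmt3l: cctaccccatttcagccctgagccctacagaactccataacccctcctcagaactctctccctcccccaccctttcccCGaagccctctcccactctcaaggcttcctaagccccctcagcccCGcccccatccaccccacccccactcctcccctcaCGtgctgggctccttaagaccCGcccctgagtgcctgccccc
Hdac11: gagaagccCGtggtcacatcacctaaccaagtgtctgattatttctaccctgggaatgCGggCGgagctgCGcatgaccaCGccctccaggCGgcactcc
The printed bases hold 10 CpG for Kat2a, 15 for Dnmt3a in 120 bases, 16 for Hdac4, 2 for Hdac9, 4 for Dnmt3l and 6 for Hdac11 in 100 bases.

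Single genes departed from these medians, as 4 picked with their values in view show. Setd5, at 159.8 ± 6.22 CPM, had 1 CpG in its window, and Tet2, at 5.35 ± 0.878 CPM, had 57. Kdm7a held the most, 65 CpG, at 19.06 ± 0.604 CPM. Prmt8, with no counts, held 44 CpG. A RefSeq start in the table need not be the start used in these cells.

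**Figure D2:**
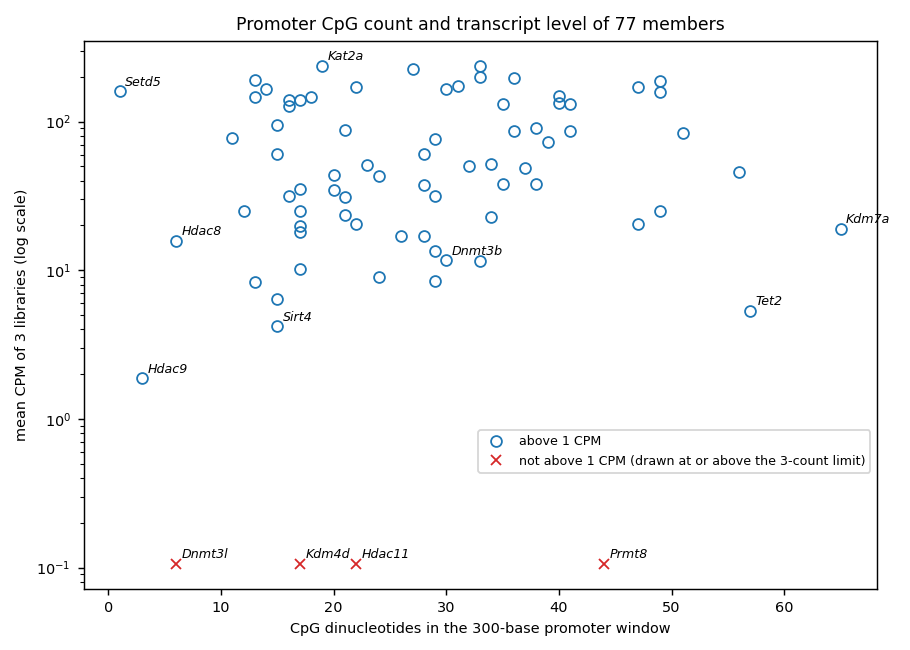
Number of CpG pairs in the 300-base promoter window (horizontal) against the mean level of 3 libraries in CPM (vertical, log axis) for the 77 genes with a RefSeq window; circles are genes called above 1 CPM and crosses the 4 that were not, drawn no lower than the limit of 3 counts over the group. CpG runs from Setd5 with 1 to Kdm7a with 65, and genes of high and low level occur through most of that range. Under 10 CpG, Setd5 is high at 159.8 CPM, while Hdac8 and Hdac9 are at 15.84 and 1.88 CPM and Dnmt3l has no counts. The CpG-richest windows, of Kdm7a, Tet2, Kmt2c and Kmt5a, belong to genes at 19.06, 5.35, 45.91 and 84.19 CPM.

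Among the DNA methyltransferases the maintenance enzyme led. Dnmt1 was at 232.7, 234.8 and 236.4 CPM, with a coefficient of variation of 0.793%. Per kilobase it made up 71.74 ± 1.1% of the family, with 23.09 ± 1.17% for Dnmt3a and 5.17 ± 0.421% for Dnmt3b. Dnmt3a was 3.11-fold lower than Dnmt1 and Dnmt3b 13.9-fold lower, with log2 ratios of -1.64 ± 0.045 and -3.79 ± 0.085 (SE; limma, adjusted p = 2.14e-09 and 8.23e-10, n = 3). The gap between Dnmt1 and Dnmt3a narrowed to 2.27-fold with the longest transcript as length and to 1.38-fold in reads not divided by length. The share of Dnmt1 was then 66.32 ± 1.27% and 56.32 ± 1.5%. Over all 28 reference genes, 33.4% of the genes tested against a reference were higher and 62.9% lower by limma, so that a called ratio is the usual outcome at this depth and its size is what is described. Dnmt3l, an inactive cofactor of DNMT3 enzymes known from germ cells, had no counts, which places it at least 894-fold below Dnmt1 per kilobase, or 685-fold by the longest transcript.

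Uhrf1, which brings DNMT1 to newly copied DNA, was at 193.9, 188.6 and 211.8 CPM, highest in replicate 3. Its relative Uhrf2 was at 60.65 ± 5.51 CPM, 6.59-fold lower by merged exons but 3.22-fold by the longest transcript and 3.27-fold in reads. Dnmt3a was at 169.6, 181.5 and 160.4 CPM and Dnmt3b at 12.71, 11.02 and 11.35 CPM, with no overlap between the pair.

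Among the TET genes a single one held nearly all of the transcript. Tet3 was at 180.8, 174.5 and 159.1 CPM, lowest in replicate 3. Tet1 was at 10.47, 10.49 and 9.65 CPM, and Tet2 at 5.98, 5.72 and 4.35 CPM. The libraries of Tet3 stood far above those of both others, and all 3 of Tet1 above all 3 of Tet2. Tet3 accounted for 91.32 ± 0.203% of TET RPKM, Tet1 for 5.88 ± 0.148% and Tet2 for 2.81 ± 0.288%. Tet3 was 32.3-fold above Tet2 per kilobase of merged exons, 26.9-fold by the longest transcript and 32-fold in reads. The ratio of Tet1 to Tet2 depended on the length used. It was 2.09-fold by merged exons (limma, adjusted p = 9.18e-05, n = 3), 1.92-fold in reads (adjusted p = 3.07e-06) and 1.22-fold by the longest transcript (adjusted p = 0.3).

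Of the genes listed for reading methylcytosine, or for removing bases and repairing the site, 10 of 10 were above 1 CPM. Parp1, which acts in strand-break repair, led at 184.4 ± 8.05 CPM. Tdg, the glycosylase that removes oxidised methylcytosine, followed at 149.3 ± 5.8 CPM. Germline genes known to be kept silent by promoter methylation in body tissues were mostly not detected. Of 13 in the table, 2 were above 1 CPM: Rhox5, a homeobox gene, at 21.93 ± 2.53 CPM and Tex101 at 6.2 ± 0.631 CPM. Asz1, Sycp3 and Dpep3 were below, Ddx4 at 0.709 ± 0.165 CPM was not placed (edgeR, adjusted p = 0.158, n = 3), and Dazl, Mael, Tdrd1, Taf7l, Sycp1, Sohlh2 and Hormad1 had no counts.

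PRC2, which methylates lysine 27 of histone H3, was transcribed as a full core. Ezh2, the catalytic subunit of dividing cells, was at 167, 174.4 and 181.8 CPM. Its paralog Ezh1 was at 52.46, 51.83 and 47.83 CPM. Each library of Ezh2 was over 3 times the same library of Ezh1, and Ezh2 made up 79.28 ± 1.48% of EZH RPKM. The difference on the log2 scale was -1.94 ± 0.068 for Ezh1 relative to Ezh2 (SE; limma, adjusted p = 6.93e-20, n = 3). Suz12, the scaffold, was at 26.59 ± 0.816 RPKM, beside Ezh2 at 26.11 ± 1.11 RPKM by merged exons. By the longest transcript they were apart, with Ezh2 at 62.57 ± 2.66 and Suz12 at 30.07 ± 0.923 RPKM. Eed, which binds the methylated product, was lower on both lengths, at 9.2 ± 0.487 and 17.04 ± 0.902 RPKM. All 8 other listed subunits were above 1 CPM, led by the histone chaperones Rbbp7 (405.9 ± 9.93 CPM) and Rbbp4 (234.9 ± 11.3 CPM).

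The methyltransferases of lysine 4 of histone H3, which act in COMPASS complexes at promoters and enhancers, were all above 1 CPM. Kmt2d, which marks enhancers, was at 240.3, 223 and 211.2 CPM, highest in replicate 1. It exceeded its paralog Kmt2c 4.98-fold per kilobase. Setd1a exceeded Setd1b 8.72-fold by merged exons, 6.7-fold by the longest transcript and 4.91-fold in reads. Kmt2a and Kmt2b, which target promoters of developmental genes, were not told apart by limma, with a log2 ratio of 0.08 ± 0.092 (SE; adjusted p = 0.409, n = 3), a value that became 0.24 with the longest transcript as length and -0.72 in reads. Kmt2e, which lacks proven methyltransferase activity, was at 116 ± 8.69 CPM and had fractional counts in the table. The shared subunits were above 1 CPM in 11 of 11 genes, with Hcfc1, a scaffold, at 396.5 ± 9.02 CPM and Psip1, a chromatin tether of KMT2A, at 171.4 ± 3.61 CPM.

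Enzymes for lysine 9 of histone H3, a mark of silent chromatin, were above 1 CPM in 6 of 6 genes. Ehmt2 (G9a) was highest at 24.39 ± 0.652 RPKM, 3.81-fold above its partner Ehmt1 by merged exons and by the longest transcript. Suv39h1 was at 9.27 ± 0.235 RPKM and exceeded Suv39h2 3.58-fold, or 5.94-fold by the longest transcript. Setdb1, which silences retroelements, exceeded Setdb2 2.65-fold, or 4.49-fold in reads. Suv39h2, Setdb1 and Setdb2 carried fractional counts, so their levels are uncertain to the extent that shared reads were divided.

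Among the NSD enzymes, which methylate lysine 36 of histone H3, Nsd1 had few reads. Its reads numbered 16, 6 and 5 in replicates 1, 2 and 3, that is 1.71, 0.636 and 0.53 CPM. Replicate 1 alone lay above 1 CPM and held 16 of the 27 reads. The mean of 0.959 ± 0.652 CPM was not resolved from 1 CPM (edgeR, adjusted p = 0.876, n = 3). Nsd1 had 27 reads beside 9025 of Nsd2, or 0.299% of them (exact binomial 95% interval 0.197 to 0.436%). Beside 1878 reads of Nsd3 its share was 1.44% (0.945 to 2.1%). Both intervals pool the reads of the 3 libraries and cover counting error only. The spread of Nsd1 between libraries is not in them. Nsd2 made up 82.33 ± 0.297% of the family's RPKM, Nsd3 17.43 ± 0.306% and Nsd1 0.24 ± 0.169%. The log2 ratio of Nsd2 to Nsd1 was 7.52, 8.92 and 9.19 in replicates 1, 2 and 3, lowest in replicate 1, where Nsd1 was highest. Nsd1 spans bases 55209782 to 55318325 of chromosome 13 (GRCm38) and shares no exon base with another annotated gene.

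The other enzymes of the histone core and H4 tail were present. Setd2, which places the third methyl group on lysine 36, was at 90.42 ± 4.35 CPM. Dot1l, the methyltransferase of lysine 79 in the core of histone H3, was at 186.3 ± 5.21 CPM. Kmt5a, which starts methylation of lysine 20 on histone H4, was at 15.86 ± 0.277 RPKM, above Kmt5c at 5.11 ± 0.0748 and Kmt5b at 2.58 ± 0.00963 RPKM, which extend it. By the longest transcript Kmt5c and Kmt5b were closer, 1.19-fold apart. The order of Kmt5b and Kmt5c turned with the scale: Kmt5c was 1.98-fold higher per kilobase and 1.86-fold lower in reads. Of the SET domain proteins with other or disputed substrates, Setd5 was highest in reads at 159.8 CPM, Setd3, the actin histidine methyltransferase, highest per kilobase at 14.3 ± 0.288 RPKM, and Setd4 lowest at 1.56 ± 0.293 RPKM.

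Among the arginine methyltransferases, Prmt1 and Prmt5 were highest. Prmt1, the main enzyme for asymmetric dimethylarginine, was at 133.5, 144.9 and 141.5 CPM. Prmt5, the main enzyme for symmetric dimethylarginine, was at 123.2, 132.6 and 126.5 CPM. Both were lowest in replicate 1, and neither was called as varying between the libraries. Per kilobase, Prmt2, Prmt3 and Prmt6 were 3.98-fold, 5.71-fold and 5.41-fold below Prmt1, and Prmt7 and Prmt9 were 2.72-fold and 7.37-fold below Prmt5. In reads Prmt3 was 3.26-fold below Prmt1 and Prmt7 1.76-fold below Prmt5. Prmt8, the membrane-bound enzyme known from brain, had no counts and lay at least 1047-fold below Prmt1 per kilobase. The 6 genes of the partner list in the table, Carm1 among them, were above 1 CPM. Mat2a, the synthase of the methyl donor, was at 349.4 ± 12.5 CPM and Mtap, which clears an inhibitor of PRMT5, at 273.1 ± 7.04 CPM. Carm1, an arginine methyltransferase that the symbol patterns do not cover, was at 108.8 ± 1.62 CPM.

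Of 17 lysine demethylases, 16 were above 1 CPM. Kdm5c, an X-linked eraser of lysine 4 methylation, was at 26.63 ± 1.32 RPKM, overlapping Kdm4a at 25.22 ± 0.745 RPKM, and the longest transcript put Kdm4a (31.27 ± 0.923 RPKM) and Kdm3a (30.72 ± 1.48 RPKM) beside Kdm5c (29.36 ± 1.45 RPKM). Kdm5c exceeded Kdm5a 3.85-fold and Kdm5b 24.5-fold. The gap to Kdm5b narrowed to 14.2-fold with the longest transcript and 10.5-fold in reads, and that to Kdm5a to 1.93-fold in reads. Kdm5b, known from slow-cycling melanoma cells, was at 19.55, 17.91 and 16.55 CPM. Kdm4b and Kdm4c were 3.41-fold and 3.94-fold below Kdm4a. Kdm3a, for lysine 9, was at 18.12 ± 0.873 RPKM, 4.14-fold above Kdm3b, or 2.42-fold in reads.

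Kdm4d, a small relative of Kdm4a, had 0, 1 and 1 reads, or 0.0707 ± 0.0612 CPM, and was below 1 CPM (edgeR, adjusted p = 0.000724, n = 3). Its 2 reads were 0.0486% of the 4115 reads of Kdm4a (exact binomial 95% interval 0.00588 to 0.176%, for counting error of pooled reads only). Kdm6b, which erases the PRC2 mark, was at 96.48, 95.82 and 101.6 CPM, and its X-linked relative Kdm6a at 22.97, 23.53 and 23.65 CPM. The libraries did not overlap, and Kdm6b was 5.04-fold higher per kilobase. Kdm1a (LSD1), a flavin-dependent demethylase of corepressor complexes, was at 14.66 ± 0.291 RPKM, 4.75-fold above Kdm1b, or 7.37-fold by the longest transcript. Kdm2a exceeded Kdm2b 3.87-fold. The lowest of the 16 was Kdm8 in reads, at 8.33 ± 0.746 CPM, and Kdm5b per kilobase of merged exons, at 1.09 ± 0.0909 RPKM. By the longest transcript Kdm5b (2.07 ± 0.173 RPKM) and Kdm7a (1.99 ± 0.0631 RPKM) overlapped.

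All 9 acetyltransferases were above 1 CPM. Kat2a was at 239.4, 231.5 and 242.2 CPM, and its paralog Kat2b (PCAF) at 73.72, 80.55 and 78.59 CPM, without overlap. Kat2a was 4.28-fold higher per kilobase and 3.06-fold higher in reads. Ep300 and Crebbp, the enhancer acetyltransferases, lay side by side at 11.65 ± 0.864 and 11.76 ± 0.201 RPKM. Their log2 ratio was 0.02 ± 0.083 by merged exons (SE; limma, adjusted p = 0.851, n = 3), -0.24 by the longest transcript (adjusted p = 0.00532) and -0.06 in reads (adjusted p = 0.457). In the MYST group, Kat7, which acetylates histone H3 near replication origins, was at 30.01 ± 1.83 RPKM, 3.35-fold above Kat5 (TIP60), or 5.29-fold in reads. Kat8, which acetylates lysine 16 of histone H4, was within 1.03-fold of Kat5 by merged exons. It was 1.14-fold above Kat5 by the longest transcript and 1.25-fold below it in reads. Kat6a exceeded Kat6b 5.68-fold by merged exons, 2.62-fold by the longest transcript and 3.1-fold in reads. Complex subunits were above 1 CPM in 20 of 20 genes, beside 74.3% of all genes with a count. They were led by the scaffolds Brd1 (138.9 ± 3.86 CPM) and Msl1 (128.2 ± 3.74 CPM).

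Among the zinc-dependent deacetylases, Hdac1 and Hdac2 of the nuclear class I were highest per kilobase on both lengths. In reads Hdac2 led, and Hdac1 lay beside Hdac5. Hdac1 was at 149.7, 146 and 143 CPM and Hdac2 at 187.1, 203.2 and 195.6 CPM. In reads every library of Hdac2 was higher, yet per kilobase they held 38.01 ± 1.12% and 39.08 ± 1.11% of class I and were not told apart (log2 ratio 0.04 ± 0.038, SE; limma, adjusted p = 0.331, n = 3). That ratio was 0.42 in reads, -0.26 with the longest transcript and 0.09 without replicate 1 (adjusted p = 4.34e-13, 8.9e-05 and 0.0357). Hdac3, the NCOR partner, held 19.97 ± 0.285% and Hdac8 2.93 ± 0.349%. The corepressor subunits that carry these enzymes were above 1 CPM in 22 of 22 genes, with Chd4, the NuRD remodeller, at 757 ± 22.8 CPM and Ncor1 at 269.4 ± 5.46 CPM.

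Class IIa, whose members shuttle between nucleus and cytoplasm, differed more. Hdac5 was at 144.8, 148.8 and 146.5 CPM, Hdac4 at 50.64, 48.33 and 52.82 CPM, and Hdac9 at 2.14, 1.59 and 1.91 CPM. No library of any of them overlapped another gene's. Hdac5 was 5.22-fold above Hdac4 per kilobase (2.9-fold in reads) and Hdac9 24.5-fold below it. Hdac9 was above 1 CPM (edgeR, adjusted p = 0.00299, n = 3; 4.21e-05 to 0.663 over the alternatives, the last at a threshold of 2 CPM). Its 53 reads were 3.71% of those of Hdac4 (exact binomial 95% interval 2.77 to 4.88%, for counting error of pooled reads only). Hdac7 was 1.75-fold above Hdac4 per kilobase and 1.34-fold below it in reads. Of class IIb, Hdac6, a tubulin deacetylase, was at 7.53 ± 0.303 RPKM and Hdac10, a polyamine deacetylase, 1.35-fold lower, or 2.32-fold in reads. Hdac11, the lone class IV enzyme, had no counts and lay at least 1536-fold below Hdac1 per kilobase.

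Of the 7 sirtuins, the NAD-dependent deacylases, all were above 1 CPM. Sirt2, mainly cytoplasmic, was at 133.1, 148 and 137.8 CPM and held 54.54 ± 1.31% of sirtuin RPKM. Sirt6, a nuclear enzyme of DNA repair, held 21.79 ± 1.03%, Sirt7 7.63 ± 0.555% and Sirt1 7.52 ± 0.423%. The mitochondrial Sirt3, Sirt4 and Sirt5 held 2.99 ± 0.178%, 3.46 ± 0.509% and 2.07 ± 0.578%, and Sirt3 and Sirt4 overlapped within their SDs. Sirt2 was 7.25-fold above Sirt1 by merged exons and 14.3-fold by the longest transcript. Sirt1 and Sirt7 were not told apart per kilobase of merged exons (log2 ratio 0.02 ± 0.06, SE; limma, adjusted p = 0.737, n = 3), and Sirt7 was 1.33-fold higher with the longest transcript (adjusted p = 0.000225).

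**Figure D3:**
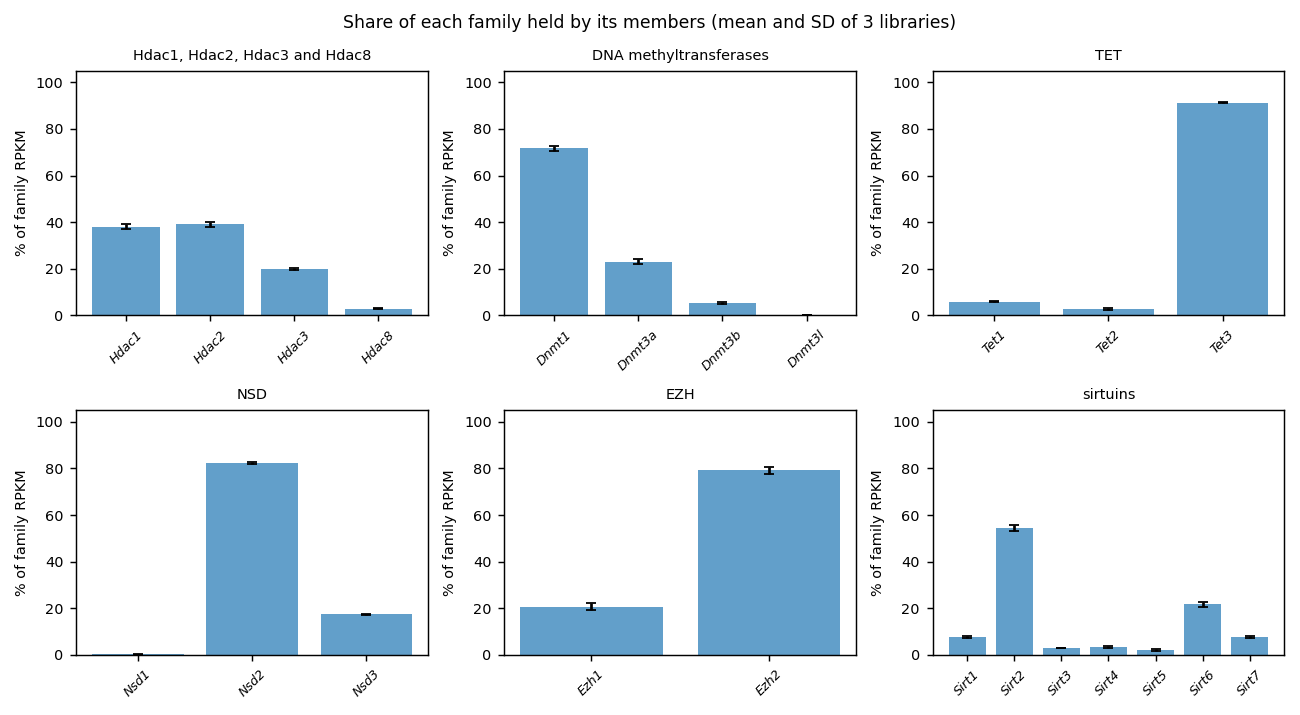
Share of the summed RPKM of 6 families held by each gene, as the mean over 3 Mock libraries with the SD as error bar. By merged exons a single gene holds over 70% in the DNA methyltransferase, TET, NSD and EZH families (Dnmt1 66.32% by the longest transcript), while Hdac1 and Hdac2 hold 38.01% and 39.08% of theirs.

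Over all families, 50 pairs of paralogs were listed and 47 could be fitted; the pairs of Kdm5d, Dnmt3l and Prmt8 gave no ratio. In limma's fit 13 were higher than their reference, 29 lower and 5 not called. Over all genes and references 33.4% were higher and 62.9% lower, and the direction of a pair depends on which gene was the reference. By limma the largest adjusted p among the called pairs was 9.18e-05 and the smallest among the others 0.331. The ratio was at least 2-fold in 38 pairs, and its median over the called pairs was 4.06-fold. With merged exons, the longest transcript and reads alone, 40 of 47 pairs kept their sign and 39 were called the same way on all 3 scales, 10 higher and 29 lower. The 7 whose sign changed were Kmt2b to Kmt2a, Kmt5c to Kmt5b, Hdac2 to Hdac1, Hdac7 to Hdac4, Sirt7 to Sirt1, Crebbp to Ep300 and Kat8 to Kat5.

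**Figure D4:**
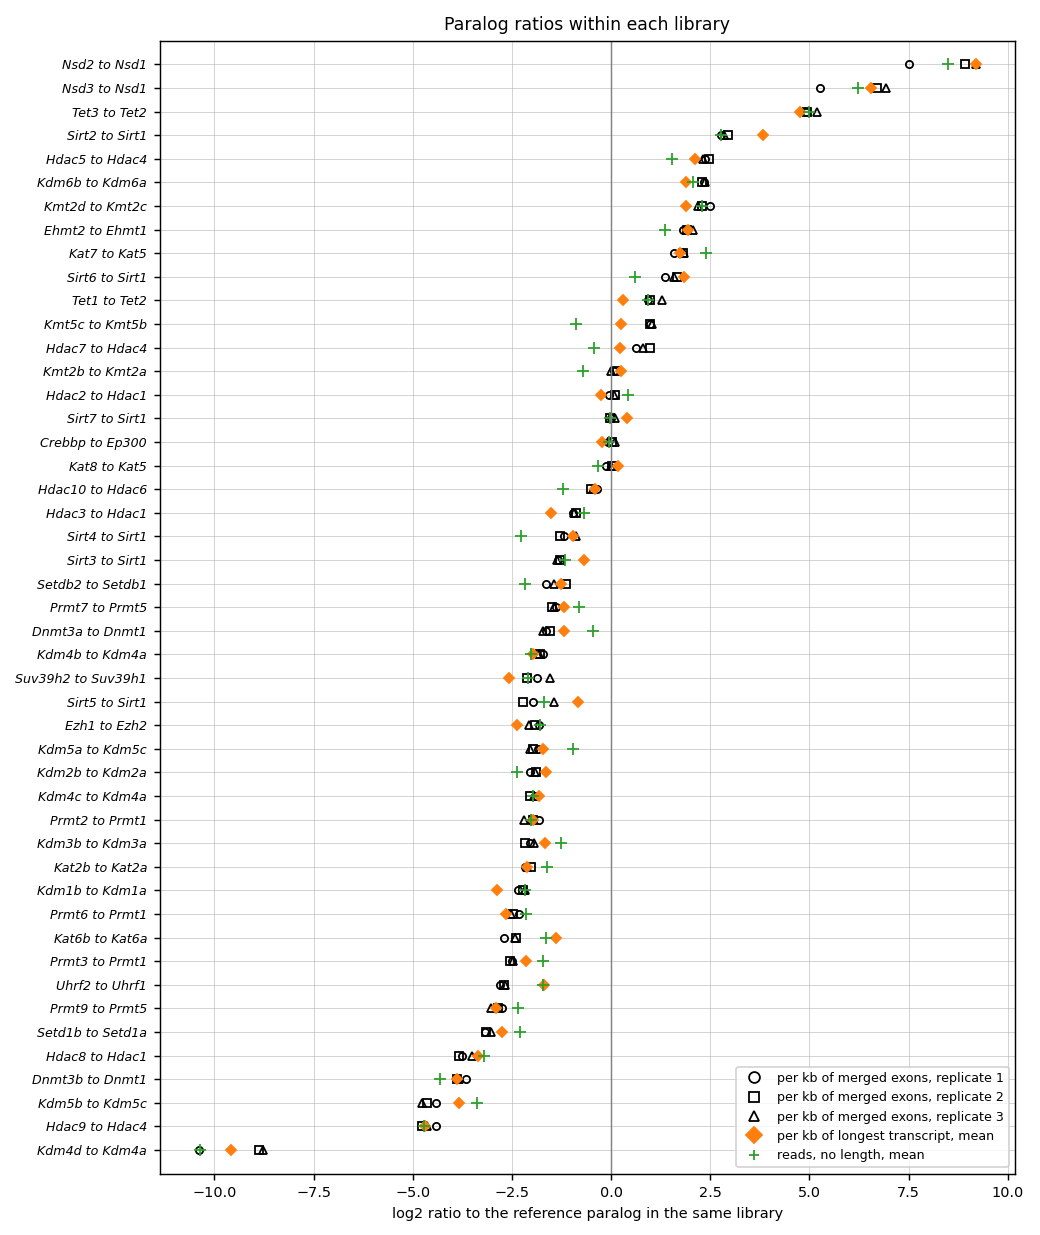
The log2 ratio of 47 genes to a reference paralog in the same library: open symbols are the 3 Mock libraries per kilobase of merged exons, diamonds the mean per kilobase of the longest transcript, plus signs the mean of reads without a length. The pairs run from Nsd2 to Nsd1 at 8.54 down to Kdm4d to Kdm4a at -9.35, and the 7 pairs whose symbols fall on both sides of 0 lie in the middle.

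The levels were steady between libraries. Of 88 genes whose mean count was 10 or more, 4 varied beyond counting error by a Poisson deviance test at an adjusted p under 0.05. The share was 3.31% over the 11000 genes tested, so by this call the enzymes stood near the background. The 4 were Kmt2d, Ep300, Uhrf1 and Tet3 (adjusted p = 0.0077, 0.0103, 0.0324 and 0.0352 by this chi-square test). Without replicate 1, 2 or 3 in turn the count was 2, 4 and 1. At an unadjusted p under 0.05 of the same test, 21.59% of these enzymes and 14.93% of all genes varied, a higher share among the enzymes. The median coefficient of variation was 4.48%, beside 5.08% over all genes tested. It was lowest for Kmt5b at 0.373% and highest for Sirt5 at 27.92%, whose levels were 5.98, 4.88 and 8.38 CPM. Both had fractional counts, and Sirt5, with 181 counts, was not called as varying (Poisson deviance test, adjusted p = 0.149).

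Of the 4 varying genes, 3 were highest in replicate 1. Ep300 was at 179.3, 164.8 and 154.7 CPM, and Kmt2d and Tet3, given above, likewise had their lowest value in replicate 3. All have long transcripts. Among genes whose mean count was 100 or more, the median log2 ratio of replicate 1 to the mean of replicates 2 and 3 was -0.053 for the 16 enzymes with a longest transcript under 3 kb, 0.004 for 34 of 3 to 6 kb, 0.029 for 19 of 6 to 9 kb and 0.036 for 11 of 9 kb or more. Over all genes of the table the same classes gave -0.025, 0, 0.014 and 0.034. This comparison was added after the values were seen, and the part of transcript length or RNA quality in the variation was not tested.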

How the data were processed

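Total RNA was purified on columns and BGI prepared the libraries by its standard eukaryotic protocol, per the labels' protocols. The extraction protocol speaks of organs as well as of the stable B16 line, while the other labels name only the cell line, which is followed here. Per the submitters' processing notes, GRCm38.p6 was the genome build. Not given in the sources used here are aligner, counter, annotation, filters and use of strand. The deposited table of the authors holds estimated counts per gene symbol, 1 column per sample, neither normalized nor pooled. In 2270 of 17285 rows a value was over 0.005 from a whole number, as when shared reads are divided. These include 12 of the enzymes: Kdm7a, Kmt5b, Kmt2e, Setd4, Sirt4, Suv39h2, Setdb1, Sirt5, Kdm4b, Kdm1b, Setdb2 and Kdm1a. Exon bases are shared with another annotated gene by 40 of the 93, on the same strand by 8 (Setd1a, Ehmt1, Prmt2, Prmt3, Kdm2b, Ep300, Hdac5 and Sirt7) and on the other strand by 35; without stated strand use, reads of either gene cannot be told apart.

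Counts were rounded, and totals were scaled by TMM factors of 1.003, 0.9977 and 0.9989. Lengths are merged exons of GENCODE M21 (GRCm38), found for all 93 genes. R 4.3.3 was used. Levels were set against 1 CPM in edgeR 4.0.16 (intercept-only fit, quasi-likelihood F statistic, two-sided, Benjamini-Hochberg over 14408 genes; common biological variation 2.8%). Paralog ratios within a library used the log2 of counts plus 0.5 per kilobase and were tested in limma 3.58.1 over 14095 genes per reference. Variation was tested by a Poisson deviance (chi-square, 2 degrees of freedom). The tests were checked on simulated counts. Alternatives were other scalings (library totals, DESeq2 1.42.0 size factors), DESeq2's Wald test, other thresholds, count filters, pseudocounts, lengths, and leaving out each library. Promoter windows came from RefSeq. Plots used matplotlib 3.10.9.

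The enzymes and lists were chosen with earlier results of these data known. Every enzyme may be named; of each partner list the pair of highest CPM and each gene not above 1 CPM; of the markers the highest and those at 0. Carm1, Tyr, Cdh1 and the neighbouring genes fall outside this rule and were picked with their values in view.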

Additional observations from a re-analysis of the deposited data

How the results depend on the processing

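The 88 genes of the set called above 1 CPM became 87 at a threshold of 2 CPM. The count stayed 88 under every other scaling, filter, threshold, test and left-out library. The number below 1 CPM, 1, became 0 when genes under 10 counts were left out and 2 at a threshold of 2 CPM, where Nsd1 joined at -1.06 on the log2 scale (edgeR, adjusted p = 0.0199) and Hdac9 turned to -0.09. Over all genes the 2907 below became 408 with at least 10 counts, 1453 with DESeq2's Wald test and 1835 to 2203 without 1 library. The 3 partner genes below became 0 with at least 10 counts. Enzymes varying between libraries numbered 1 to 4 without 1 library, and all varying genes 129 to 244 against 364. The median RPKM of 7.67 became 10.7 with the longest transcript. In reads without a length, Kmt5c to Kmt5b turned to -0.9 and Hdac7 to Hdac4 to -0.42. No paired analysis was possible because the 3 samples form 1 group. The depth of these 3 libraries limits what can be said of genes near 1 CPM, such as Nsd1, and of any gene under 0.106 CPM.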

Other observations

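The genes beside the 5 enzymes not called above 1 CPM were looked at after those values were seen, among genes of the table. Nsd1 lies between Fgfr4, a growth factor receptor gene with no counts, and Rab24, at 32.39 ± 2.59 CPM, with Prelid1 next at 314.2 ± 12.1 CPM. Kdm4d lies between Endod1 (17.82 ± 0.556 CPM) and the splicing gene Cwc15 (79.83 ± 5.35 CPM). Hdac11 lies between the nuclear pore gene Nup210 (92.45 ± 3.52 CPM) and Fbln2, whose level of 0.852 ± 0.642 CPM was 1.5, 0.212 and 0.849 CPM in replicates 1, 2 and 3. Dnmt3l lies between Aire (1.35 ± 0.157 CPM) and Icosl (3.33 ± 0.313 CPM), both low. Prmt8 lies between Cracr2a (4.43 ± 1.01 CPM) and Tspan11, which had no counts. Each of the 5 had at least 1 adjacent gene called above 1 CPM by edgeR, while Aire and Fbln2 were not resolved from it. Of all 17285 genes, 10711 were called above 1 CPM. Such a neighbour is therefore common for any gene, and nothing particular to these 5 is drawn from it.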
